A study of Mus musculus with 7 samples.

Results

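Keratin-associated proteins are the matrix proteins of hair. All rows of the 7 scanner files that are not array controls and whose gene name begins with Krtap were taken. The number after Krtap gives the subfamily. With repeated spots of a probe averaged into a single row, there were 34 of 41174 rows and 27 genes in 13 subfamilies. Of these, 25 genes were bright enough to test, among 17083 genes tested in all. Membership follows from the name alone.

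Hair is built from filaments of hair keratins embedded in a matrix of keratin-associated proteins, which are cross-linked to the keratins and to each other by disulfide bonds. The genes are small, lie in clusters and are switched on late, in the cortex and cuticle cells of the hair shaft above the dividing matrix of a growing follicle. Textbook classes divide the proteins by composition into high-sulfur, ultrahigh-sulfur and high-glycine-tyrosine families. In skin their RNA is a readout of hair shaft formation, because interfollicular epidermis does not make these proteins.

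The study compared the skin of mice that ate glucosylceramide (GC), a sphingolipid with a sugar head group, with that of mice that did not, before and after irritation by sodium dodecyl sulfate (SDS), a detergent. Male HR-1 mice, a hairless strain, were 5 weeks old and ate the purified diet AIN-93G with GC (GC-fed) or without it (control-fed). RNA of the dorsal skin was compared on 7 arrays with 2 colours, each carrying 1 GC-fed and 1 control-fed sample, for 14 samples in all. Of the arrays, 3 were from skin before SDS, after 12 days of diet, and 4 from skin after 2 daily treatments with 10% SDS, after 14 days of diet. Each group was thus HR-1 on one of the diets: GC-fed before SDS (n = 3), control-fed before SDS (n = 3), GC-fed after SDS (n = 4) and control-fed after SDS (n = 4). The labels call the replicates biological and do not say whether a sample pools mice or whether the same mice were used before and after SDS. HR-1 mice lose their coat, so the skin is a model with defective hair follicles, and whole skin also holds epidermis, sebaceous glands, fat, muscle and immune cells. In such bulk samples fewer cells of a type and less RNA per cell cannot be told apart. The GC-fed sample was in Cy3 (green) on 1 of 3 arrays before SDS and on 2 of 4 after SDS, and in Cy5 (red) on the rest. The arrays before SDS lie on one slide and scan and those after SDS on another, and diet time differs as well, so SDS, slide, scan and days of diet cannot be told apart in any comparison of before with after.

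The names in the scanner files are those of the array design, and 8 of the 27 genes now have another symbol in RefSeq. Krtap16-1, Krtap16-5, Krtap16-4 and Krtap16-9 are now Krtap19-2, Krtap19-3, Krtap19-4 and Krtap19-1, Krtap8-2 is Krtap19-5, Krtap16-10 is Krtap16-3, Krtap16-7 is Krtap21-1 and Krtap16-8 is Krtap6-5. The file names are used here. By the RefSeq gene table, 17 members lie on chromosome 16, 6 on chromosome 11, 3 on chromosome 7 and 1, Krtap12-1, on chromosome 10. The arrays also carry 14 genes, on 15 rows, that RefSeq now calls Krtap but the files name otherwise, and these are described apart.

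RefSeq promoter sequences (build GRCm38.p6) matched 25 of the 27 members by current symbol. The letters TATAA, the core of a TATA box, were searched on the strand of the gene only. They stood in the 250 bases before the start of 24 of 25 members, against 16.7% of 27025 genes with a promoter in the table. Within the window from 60 to 16 bases before the start they stood in 19 of 25 members, against 5.28% of all genes, and in 13 members they began 32 to 27 bases before it. The letters CTTTGA, a core of the sites that LEF1 and TCF factors bind, were searched on both strands and stood in 5 of 25 members (20%) and in 14.1% of all genes. Matches are a description of letters and not of binding. The 100 bases before the start are shown for 8 members, 5′ to 3′ on the strand of the gene, with TATAA in capitals where it lies in that window: the brightest testable member of subfamilies 2, 3, 4, 5, 6 and 8, then Krtap16-5, which had the highest fold after SDS in control-fed mice, and Krtap5-4, the member with no TATAA before the start. Krtap5-4 had the letters in the 50 bases after the annotated start.
Krtap2-4: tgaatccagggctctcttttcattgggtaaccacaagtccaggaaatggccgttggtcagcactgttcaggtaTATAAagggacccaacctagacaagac
Krtap3-1: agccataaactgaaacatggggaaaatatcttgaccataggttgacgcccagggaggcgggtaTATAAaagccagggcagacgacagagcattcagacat
Krtap4-7: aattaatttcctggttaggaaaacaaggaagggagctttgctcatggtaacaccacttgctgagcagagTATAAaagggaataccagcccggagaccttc
Krtap5-1: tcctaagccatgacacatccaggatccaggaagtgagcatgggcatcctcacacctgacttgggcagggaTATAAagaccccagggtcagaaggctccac
Krtap6-3: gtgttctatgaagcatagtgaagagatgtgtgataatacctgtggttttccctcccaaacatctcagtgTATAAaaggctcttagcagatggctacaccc
Krtap8-1: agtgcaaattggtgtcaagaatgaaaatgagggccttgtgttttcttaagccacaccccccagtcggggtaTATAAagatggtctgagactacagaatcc
Krtap16-5: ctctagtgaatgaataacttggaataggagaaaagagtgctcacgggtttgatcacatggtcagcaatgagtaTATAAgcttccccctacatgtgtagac
Krtap5-4: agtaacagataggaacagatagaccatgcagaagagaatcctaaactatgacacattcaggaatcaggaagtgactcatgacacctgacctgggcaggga
The stretches lie, in the same order, at chr11:99614847-99614946 (minus strand), chr11:99566631-99566730 (minus strand) and chr11:99644090-99644189 (minus strand), at chr7:142297135-142297234 (minus strand), at chr16:89083924-89084023 (plus strand), chr16:89487953-89488052 (minus strand) and chr16:88878039-88878138 (minus strand), and at chr7:142303402-142303501 (plus strand).

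Levels are log2 intensities after background correction and normalization, and ratios are log2 GC-fed over control-fed on one array. Between 48.5% and 54.5% of green and between 58.2% and 62.8% of red spots per array were well above background, 4 to 27 spots per array were flagged and left out, and 0 were saturated. The number of arrays limits the precision. The median ratio over all genes lay between -0.02 and 0.02 on every array. A gene was tested when well above background in at least 3 of 14 samples. Of the members, 23 were above background in 14 of 14 samples on at least 1 row, Krtap16-4 in 12 and Krtap8-2 in 7, while Krtap13 (1 of 14) and Krtap20-2 (0 of 14) were not tested. Many of these genes have near-identical neighbours, so probes of Krtap3, Krtap5, Krtap6 and of the genes now called Krtap19 may each bind RNA of more than 1 gene, which was not tested.

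The family moved as a block from sample to sample. For each gene the level in a sample was taken relative to that gene's mean over the 14 samples, and averaged over the 25 genes. In control-fed skin before SDS this mean was -0.92, 0.42 and -1.16 in replicates 1, 2 and 3, or -0.55 ± 0.85 (SD, n = 3). In GC-fed skin before SDS it was -0.28, -1.39 and -1.56, or -1.08 ± 0.70 (SD, n = 3). Control-fed replicate 2 stood high among the samples before SDS, above 5 samples taken after SDS, and the other 5 samples before SDS were below every sample after it. After SDS the mean was 1.42, 0.51, 0.20 and 0.31 in control-fed skin, or 0.61 ± 0.56 (SD, n = 4). In GC-fed skin after SDS it was 0.41, 0.34, 1.46 and 0.23, or 0.61 ± 0.57 (SD, n = 4). One sample stood high in each diet after SDS, control-fed replicate 1 and GC-fed replicate 3, and the other 6 samples after SDS lay close together.

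**Figure D1:**
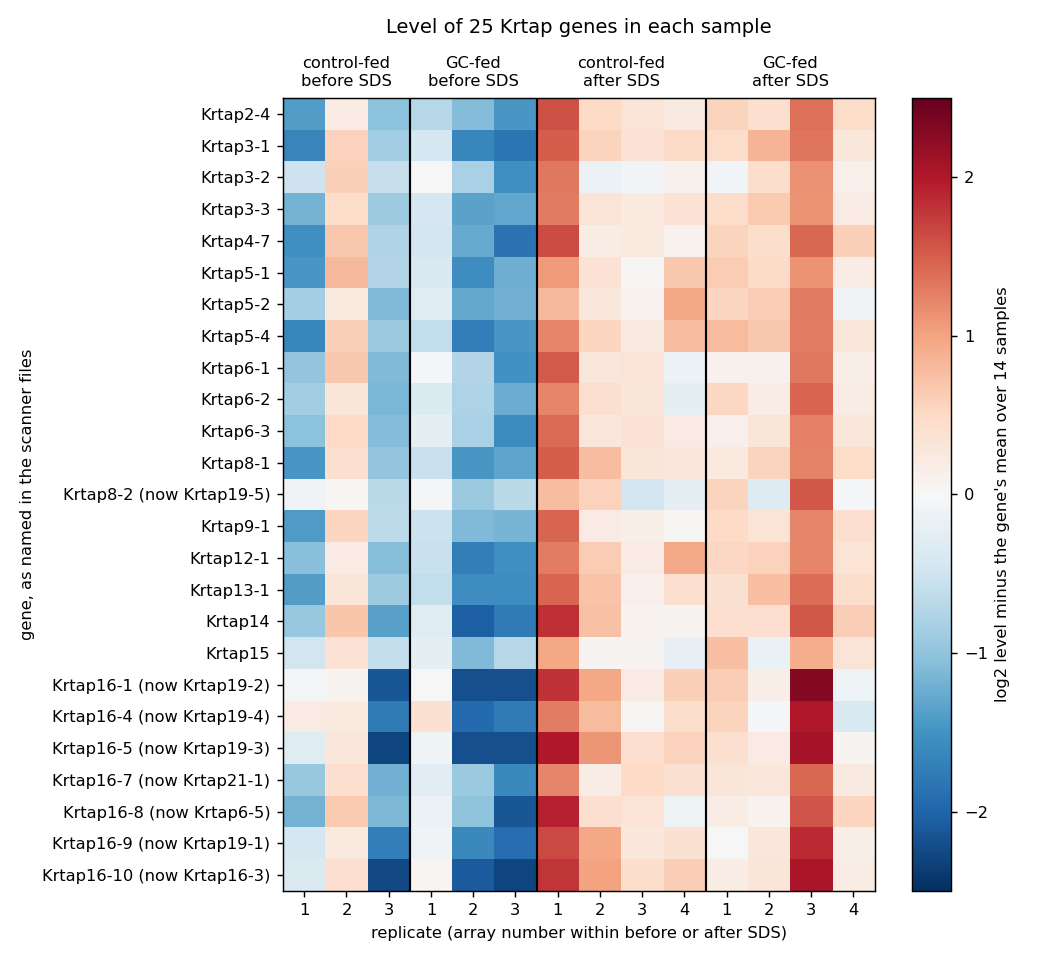
Level of the 25 tested Krtap genes (rows) in the 14 samples (columns, by diet and SDS, with the replicate number), as log2 level minus the mean of the gene over the 14 samples. Most of a column shares a colour: control-fed replicate 2 before SDS is above the other samples before SDS, and control-fed replicate 1 and GC-fed replicate 3 are the highest after SDS, with family means of 1.42 and 1.46.

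The first comparison was GC-fed with control-fed skin before SDS. All 25 tested members had a fitted ratio below 0, with a median of -0.49 on the log2 scale and a range from -0.87 in Krtap14 to -0.26 in Krtap6-2. None passed: 0 of 25 members and 0 of 17083 genes (0%) had a Benjamini-Hochberg adjusted p under 0.05 in limma's moderated test, and at an unadjusted p under 0.05 there were 0 members, with 41 genes higher and 27 lower. The standard errors of the members, 0.36 to 0.74, were of the size of the folds.

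The arrays before SDS pointed different ways. The median ratio of the 25 members was 0.68 on array 1, with 25 of 25 above 0, and -1.85 on array 2, with 25 of 25 below 0. On array 3 it was -0.41, with 24 of 25 below 0. In Krtap14, a high-sulfur member, the ratios were 0.63, -2.72 and -0.41, for a fitted ratio of -0.87 ± 0.74 (SE; limma adjusted p = 1). In Krtap6-2, a high-glycine-tyrosine member, they were 0.53, -1.07 and -0.10, for a fitted ratio of -0.26 ± 0.41 (SE; limma adjusted p = 1). The negative median came from array 2: without it the median was 0.14. Without array 1 it was -1.66. Read as red over green, the family medians of arrays 1, 2 and 3 were -0.68, -1.85 and -0.41, so all 3 had the same sign in the dyes and not in the diets. Without a dye term the median was -0.56, and with the 3 arrays fitted alone it was -0.20. The dye term itself passed for 0 genes. That term is shared by the arrays before and after SDS, so opposite dye signs before and after could cancel in it.

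The second comparison was between the diets after SDS. The members centred on 0: 14 of 25 were above 0, the median was 0.04 and the range ran from -0.33 in Krtap16-5 to 0.27 in Krtap8-2. Again 0 of 25 members and 0 of 17083 genes (0%) passed in limma with Benjamini-Hochberg adjustment. At an unadjusted p under 0.05 there were 0 members, with 286 genes higher and 477 lower. Without array 4 after SDS, 930 genes passed after adjustment.

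On single arrays after SDS the family was far from 0. The median ratio was -1.07 on array 1, with 25 of 25 below 0, and 1.16 on array 3, with 25 of 25 above 0. It was -0.09 on array 2 and 0.02 on array 4, with 11 and 13 of 25 above 0. Leaving out array 1 moved the median to 0.43 and leaving out array 3 to -0.48. Read as red over green the medians were 1.07, 0.09, 1.16 and 0.02, all above 0 after SDS and all below 0 before it. In Krtap16-5 the ratios were -1.59, -0.90, 1.66 and -0.50, for a fitted ratio of -0.33 ± 0.61 (SE; limma adjusted p = 0.904). In Krtap8-2, which was well above background in only 7 of 14 samples, they were -0.21, -0.91, 2.03 and 0.17, for a fitted ratio of 0.27 ± 0.41 (SE; limma adjusted p = 0.882). The sign of the Krtap8-2 ratio turned without background correction (-0.17) and with the processed signal of the scanner software (-0.67), and that of Krtap16-5 turned without array 1 (0.08).

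**Figure D2:**
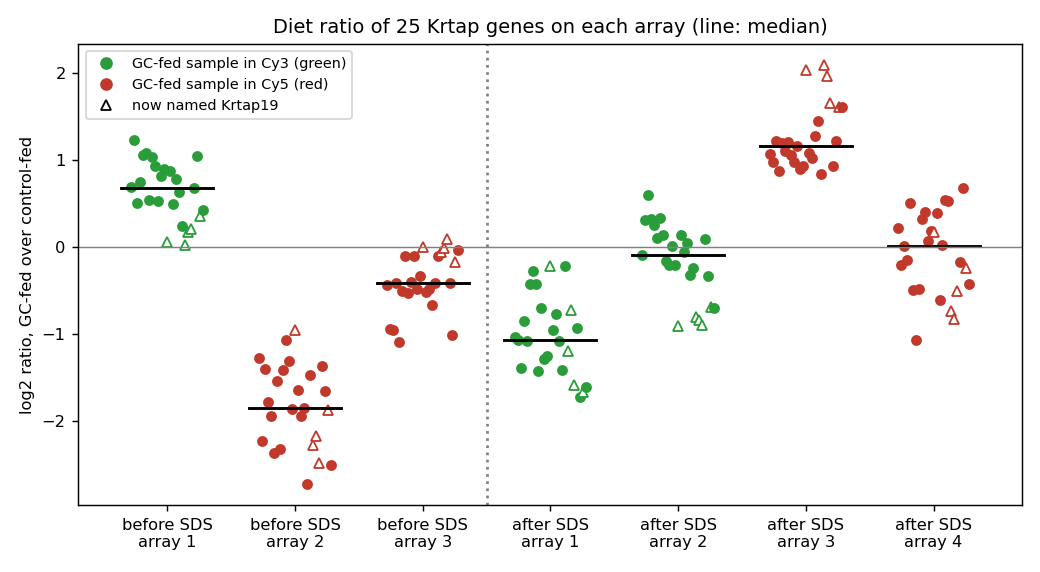
Diet ratio (log2 GC-fed over control-fed) of the 25 tested Krtap genes on each of the 7 arrays, coloured by the dye of the GC-fed sample, with the median as a line; triangles are the 5 genes now named Krtap19. The medians run from -1.85 on array 2 before SDS to 1.16 on array 3 after SDS, and the arrays of one group do not share a sign.

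The third comparison was the change in the diet ratio from before to after SDS. All 25 members were above 0 here, with a median of 0.54 and a range from 0.24 in Krtap6-1 to 0.94 in Krtap14. None of the 25 members and 0 of 17083 genes (0%) passed in limma with Benjamini-Hochberg adjustment, and at an unadjusted p under 0.05 there were 0 members, with 104 genes higher and 103 lower. Without array 4 after SDS, 56 genes passed after adjustment. Krtap14 had 0.94 ± 0.96 and Krtap6-1 had 0.24 ± 0.73 (SE; limma adjusted p = 1.00 for both). The Krtap6-1 ratios were 0.93, -1.41 and -0.40 before SDS and -1.42, -0.16, 0.98 and 0.32 after it, and both sets span 0. The median over the members was -0.14 without array 2 before SDS, -0.11 without array 3 after SDS and 1.71 without array 1 before SDS.

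The last comparisons set skin after SDS against skin before it within a diet, and here the family was higher after SDS throughout. In control-fed mice 25 of 25 members had a fold above 0, with a median of 1.16 (2.23-fold) and a range from 0.34 in Krtap8-2 to 1.75 in Krtap16-5. In GC-fed mice 25 of 25 were above 0 as well, with a median of 1.71 (3.28-fold) and a range from 1.04 in Krtap8-2 to 2.25 in Krtap16-1. The median over all genes was -0.0017 and -0.0016. By limma with Benjamini-Hochberg adjustment 4 of 25 members rose in control-fed mice, against 6.7% of all genes tested, and 15 of 25 rose in GC-fed mice, against 6.12%. None fell in either diet, where 8.42% and 7.47% of all genes did. At an unadjusted p under 0.05, 16 and 25 members were higher, against 15.5% and 14% of all genes.

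The members that rose in control-fed mice, Krtap2-4, Krtap5-4, Krtap8-1 and Krtap12-1, also rose in GC-fed mice. The counts of 4 and 15 do not show that the diets differ: the difference in the SDS effect between the diets is the third comparison, which passed for 0 genes. Every sample after SDS lay above every sample before SDS for 5 of 25 members in control-fed mice, where 14.5% of all genes did so, and for 21 of 25 in GC-fed mice, where 11.1% did. The exceptions in GC-fed mice were Krtap3-2, Krtap8-2, Krtap16-1 and Krtap16-4. In control-fed mice replicate 2 before SDS reached into the range after SDS in all 20 other members, and replicate 1 did so as well in Krtap8-2 and Krtap16-4.

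The number that passed depended on single arrays, while the median stayed above 0 without any one of the 7. In control-fed mice 11 members passed without array 2 before SDS, 5 without array 3 after SDS, 1 without array 4 after SDS and 0 without array 1 or array 3 before SDS or array 1 or array 2 after SDS. In GC-fed mice 25 passed without array 1 before SDS, 13, 10 and 6 without arrays 1, 4 and 2 after SDS, 5 without array 2 before SDS and 1 without array 3 before SDS or array 3 after SDS. The number that passed among all genes tested changed widely over these fits as well. Only its range is given, in the closing section, so the member counts of single fits are not read as results. A count that changes with single arrays is thus not particular to the family. The medians ran from 0.68 to 1.68 in control-fed and from 1.30 to 2.34 in GC-fed mice over these fits. Averaging the rows of a gene instead of taking the brightest left 0 members past the threshold in control-fed mice and 6 in GC-fed mice. Of the 27 genes 22 have 1 row only, so nothing was averaged in them. The number called among all genes tested fell as well.

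**Figure D3:**
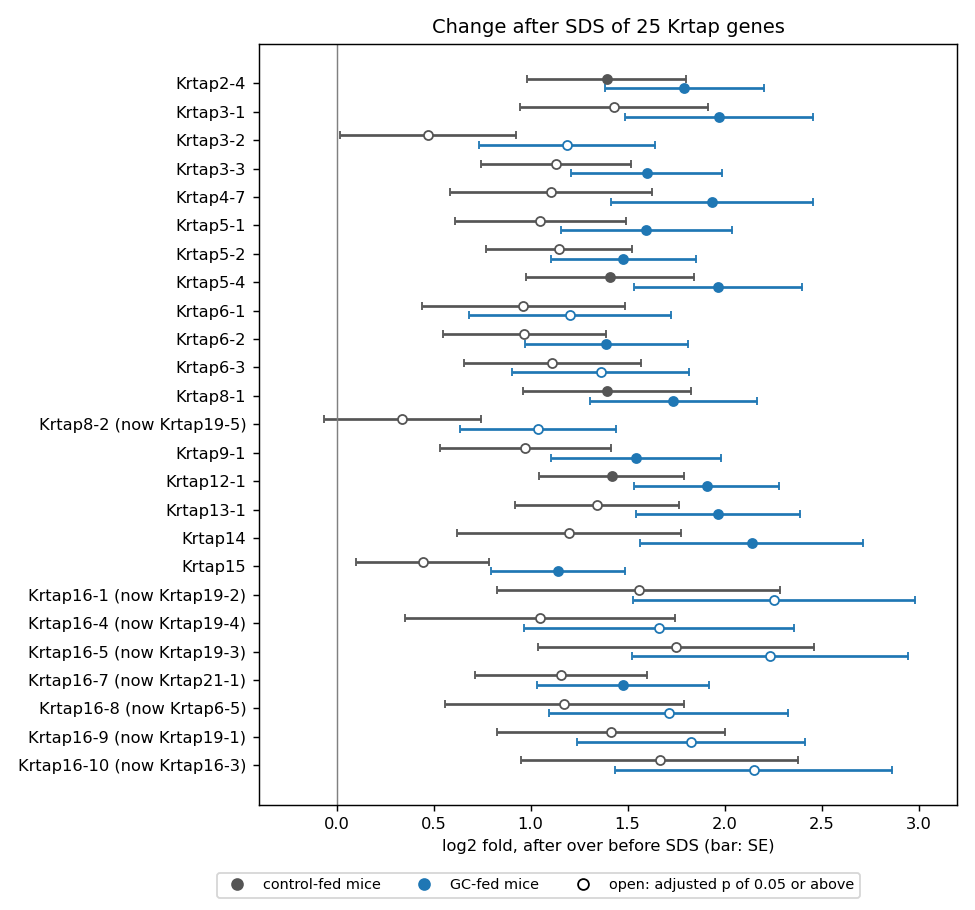
Fitted log2 fold of the 25 tested Krtap genes, after over before SDS, in control-fed (grey) and GC-fed (blue) mice, with bars of 1 SE and filled points for an adjusted p under 0.05. All 50 points lie above 0, from 0.34 in Krtap8-2 to 2.25 in Krtap16-1, and the bars of the diets overlap for most genes.

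High-sulfur proteins are the cysteine-rich part of the hair matrix. Of the 8 tested members of this class, 2 rose in control-fed mice and 7 in GC-fed mice, with medians of 1.27 and 1.85. Among all genes tested 6.7% and 6.12% rose. The control-fed count of 2 is small and is not read as a result. The classes follow textbook composition and were assigned after the values were seen.

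Krtap2-4 rose by 1.39 ± 0.41 (SE; limma adjusted p = 0.04) in control-fed and by 1.79 ± 0.41 (SE; adjusted p = 0.0168) in GC-fed mice. Control-fed skin had log2 levels of 8.92, 10.51 and 9.29 before and 11.91, 10.81, 10.63 and 10.55 after SDS. GC-fed skin had 9.61, 9.23 and 8.86 before and 10.87, 10.73, 11.70 and 10.77 after SDS. The groups before and after SDS do not overlap in either diet. Krtap12-1 rose by 1.42 ± 0.37 (SE; limma adjusted p = 0.0251) and 1.91 ± 0.37 (SE; adjusted p = 0.00959), the smallest adjusted p of the family in both diets. Krtap12-1 levels (log2) were 8.57, 9.82 and 8.56 in control-fed skin before SDS and 10.89, 10.25, 9.81 and 10.55 after SDS. They were 9.06, 7.88 and 8.08 and then 10.13, 10.19, 10.83 and 9.95 in GC-fed skin. The control-fed groups meet at replicate 2 before SDS and replicate 3 after it, and the GC-fed groups do not overlap.

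Krtap3-1, the brightest of the Krtap3 genes, had 1.43 ± 0.48 (SE; limma adjusted p = 0.0648) in control-fed and rose by 1.97 ± 0.48 (SE; adjusted p = 0.0218) in GC-fed mice. Replicates of the control-fed groups had log2 levels of 10.98, 13.22 and 11.76 and, after SDS, 14.15, 13.19, 12.99 and 13.11. Those of the GC-fed groups had 12.20, 10.99 and 10.81 and, after SDS, 13.09, 13.49, 13.97 and 12.91. The control-fed groups overlap through replicate 2 before SDS and the GC-fed groups do not. Krtap3-3 rose in GC-fed mice by 1.6 ± 0.39 (SE; limma adjusted p = 0.021) and had 1.13 ± 0.39 (SE; adjusted p = 0.0683) in control-fed mice. Its log2 level in control-fed replicates went from 9.24, 10.87 and 9.52 before SDS to 11.72, 10.75, 10.67 and 10.78 after it. In GC-fed replicates it went from 10.00, 9.09 and 9.11 to 10.87, 11.07, 11.54 and 10.63. It has the same pattern as Krtap3-1. Krtap3-2 had 0.47 ± 0.45 and 1.19 ± 0.45 (SE) and passed in neither diet.

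Krtap13-1 rose in GC-fed mice by 1.97 ± 0.42 (SE; limma adjusted p = 0.0128) and had 1.34 ± 0.42 (SE; adjusted p = 0.0501) in control-fed mice, just outside the threshold. Control-fed skin had log2 levels of 9.46, 11.14 and 9.96 before and 12.29, 11.55, 10.97 and 11.27 after SDS. GC-fed skin had 10.24, 9.29 and 9.30 before and 11.22, 11.60, 12.24 and 11.29 after SDS. Krtap13-1 before SDS is lowest in GC-fed replicates 2 and 3. Krtap14 rose in GC-fed mice by 2.14 ± 0.58 (SE; limma adjusted p = 0.0303). Krtap14 levels (log2) were 10.00, 11.62 and 9.58 in control-fed skin before SDS and 12.76, 11.68, 11.03 and 11.01 after SDS. They were 10.63, 8.90 and 9.17 and then 11.35, 11.35, 12.48 and 11.56 in GC-fed skin. Its range over the 14 samples was 14.5-fold. Krtap15 rose in GC-fed mice by 1.14 ± 0.34 (SE; limma adjusted p = 0.046) and had 0.44 ± 0.34 (SE; adjusted p = 0.395) in control-fed mice. Replicates of the control-fed groups had log2 levels of 7.89, 8.72 and 7.75 and, after SDS, 9.33, 8.43, 8.42 and 8.14. Those of the GC-fed groups had 8.13, 7.26 and 7.65 and, after SDS, 9.11, 8.19, 9.26 and 8.67. Its control-fed groups overlap at replicate 2 before SDS.

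Ultrahigh-sulfur proteins are the most cysteine-rich, and the Krtap5 genes among them are known from the hair cuticle. All 5 tested members rose in GC-fed mice and 1 rose in control-fed mice, with medians of 1.59 and 1.10. The shares of all genes that rose were 6.12% in GC-fed and 6.7% in control-fed mice. The control-fed count of 1 is not read as a result.

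Krtap5-4 rose by 1.41 ± 0.43 (SE; limma adjusted p = 0.0463) in control-fed and by 1.97 ± 0.43 (SE; adjusted p = 0.0145) in GC-fed mice. Its log2 level in control-fed replicates went from 11.65, 13.88 and 12.36 before SDS to 14.51, 13.83, 13.51 and 14.05 after it. In GC-fed replicates it went from 12.68, 11.56 and 11.83 to 14.09, 13.97, 14.56 and 13.58. Krtap5-1, its close relative, rose in GC-fed mice by 1.59 ± 0.44 (SE; limma adjusted p = 0.0332) and had 1.05 ± 0.44 (SE; adjusted p = 0.122) in control-fed mice. Control-fed skin had log2 levels of 12.19, 14.46 and 12.92 before and 14.71, 14.02, 13.67 and 14.31 after SDS. GC-fed skin had 13.27, 12.10 and 12.42 before and 14.29, 14.12, 14.77 and 13.82 after SDS. The patterns of the pair were nearly the same, with a Pearson r of 0.99 over 14 samples, and a shared signal of their probes was not tested. Krtap5-2 rose in GC-fed mice by 1.48 ± 0.37 (SE; limma adjusted p = 0.0241) and had 1.15 ± 0.37 (SE; adjusted p = 0.0574) in control-fed mice. Krtap5-2 levels (log2) were 8.35, 9.45 and 8.10 in control-fed skin before SDS and 10.01, 9.48, 9.29 and 10.17 after SDS. They were 8.90, 7.91 and 7.99 and then 9.73, 9.81, 10.49 and 9.11 in GC-fed skin. On array 4 after SDS all 3 Krtap5 genes were below 0 in the diet ratio (-0.49, -1.06 and -0.48 for Krtap5-1, Krtap5-2 and Krtap5-4), where the family median was 0.02, and control-fed replicate 4 is the highest of its group but one in Krtap5-1 and Krtap5-4 and the highest in Krtap5-2.

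Krtap4-7 rose in GC-fed mice by 1.93 ± 0.52 (SE; limma adjusted p = 0.0303) and had 1.10 ± 0.52 (SE; adjusted p = 0.162) in control-fed mice. Replicates of the control-fed groups had log2 levels of 10.31, 12.50 and 11.08 and, after SDS, 13.48, 12.03, 12.08 and 11.93. Those of the GC-fed groups had 11.36, 10.57 and 9.99 and, after SDS, 12.39, 12.28, 13.27 and 12.43. Replicate 2 of the control-fed mice before SDS is above 3 of the 4 control-fed samples after SDS. Krtap9-1 rose in GC-fed mice by 1.54 ± 0.44 (SE; limma adjusted p = 0.0369) and had 0.97 ± 0.44 (SE; adjusted p = 0.147) in control-fed mice. Its log2 level in control-fed replicates went from 9.80, 11.76 and 10.56 before SDS to 12.66, 11.42, 11.36 and 11.24 after it. In GC-fed replicates it went from 10.68, 10.11 and 10.04 to 11.71, 11.55, 12.43 and 11.63. The order of its samples is close to that of Krtap4-7.

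High-glycine-tyrosine proteins are made early in the cortex. Of the 11 tested members, 1 rose in control-fed mice and 3 rose in GC-fed mice (Krtap6-2, Krtap8-1 and Krtap16-7), with medians of 1.16 and 1.66. Over all genes 6.7% and 6.12% rose, so the control-fed count of this class is near that share. The smaller counts beside the other classes were not tested as a difference.

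Krtap8-1 rose by 1.39 ± 0.43 (SE; limma adjusted p = 0.0477) in control-fed and by 1.74 ± 0.43 (SE; adjusted p = 0.0226) in GC-fed mice. Control-fed skin had log2 levels of 10.96, 12.82 and 11.43 before and 13.92, 13.18, 12.72 and 12.69 after SDS. GC-fed skin had 11.86, 10.96 and 11.10 before and 12.67, 12.98, 13.65 and 12.88 after SDS. Control-fed replicate 2 before SDS lies within the control-fed range after SDS. Krtap6-3, the brightest Krtap6 gene, had 1.11 ± 0.46 (SE; limma adjusted p = 0.113) and 1.36 ± 0.46 (SE; adjusted p = 0.0673). Krtap6-3 levels (log2) were 12.74, 14.27 and 12.69 in control-fed skin before SDS and 15.20, 14.07, 14.13 and 13.99 after SDS. They were 13.56, 12.96 and 12.21 and then 13.91, 14.08, 15.03 and 14.06 in GC-fed skin. Krtap6-1 had 0.96 ± 0.52 (SE; limma adjusted p = 0.22) and 1.2 ± 0.52 (SE; adjusted p = 0.144). Replicates of the control-fed groups had log2 levels of 12.09, 13.74 and 11.97 and, after SDS, 14.60, 13.35, 13.42 and 12.92. Those of the GC-fed groups had 13.02, 12.33 and 11.56 and, after SDS, 13.18, 13.19, 14.39 and 13.23. In both genes the GC-fed groups do not overlap although neither passed. Krtap6-2 rose in GC-fed mice by 1.39 ± 0.42 (SE; limma adjusted p = 0.0466) and had 0.97 ± 0.42 (SE; adjusted p = 0.133) in control-fed mice. Its log2 level in control-fed replicates went from 8.92, 10.09 and 8.66 before SDS to 11.01, 10.19, 10.10 and 9.57 after it. In GC-fed replicates it went from 9.46, 9.03 and 8.55 to 10.30, 9.98, 11.26 and 9.97. Krtap16-7 (Krtap21-1) rose in GC-fed mice by 1.48 ± 0.44 (SE; limma adjusted p = 0.0451), and Krtap16-8 (Krtap6-5) had 1.71 ± 0.62 (SE; adjusted p = 0.0844). In control-fed mice these genes had 1.16 ± 0.44 and 1.17 ± 0.62 (SE; limma adjusted p = 0.0937 and 0.205).

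The 5 tested genes now called Krtap19 are part of the high-glycine-tyrosine class counted above. None of them passed in either diet, with medians of 1.41 and 1.83. As 6.7% and 6.12% of all genes rose, this count is not read as a result. Krtap16-1 (Krtap19-2) had the highest fold in GC-fed mice, 2.25 ± 0.73 (SE; limma adjusted p = 0.059). Control-fed skin had log2 levels of 9.72, 9.83 and 7.61 before and 11.56, 10.73, 9.96 and 10.36 after SDS. GC-fed skin had 9.74, 7.55 and 7.55 before and 10.37, 9.92, 12.05 and 9.62 after SDS. The GC-fed groups overlap because replicate 1 before SDS is above replicate 4 after SDS. Krtap16-5 (Krtap19-3) had the highest fold in control-fed mice, 1.75 ± 0.71 (SE; limma adjusted p = 0.111), and 2.23 ± 0.71 (SE; adjusted p = 0.0559) in GC-fed mice. Krtap16-5 levels (log2) were 10.21, 10.79 and 8.22 in control-fed skin before SDS and 12.51, 11.61, 10.94 and 11.09 after SDS. They were 10.41, 8.32 and 8.31 and then 10.92, 10.71, 12.59 and 10.58 in GC-fed skin. The range over the 14 samples was 22.6-fold in Krtap16-1 and 20.8-fold in Krtap16-5. Krtap8-2 (Krtap19-5) had the lowest folds, 0.34 ± 0.40 and 1.04 ± 0.40 (SE; limma adjusted p = 0.59 and 0.106), and was well above background in 2 of 4 samples in each group after SDS, 2 of 3 in control-fed and 1 of 3 in GC-fed skin before SDS. Replicates of the control-fed groups had log2 levels of 7.82, 7.93 and 7.23 and, after SDS, 8.67, 8.48, 7.43 and 7.69. Those of the GC-fed groups had 7.88, 6.99 and 7.23 and, after SDS, 8.46, 7.57, 9.46 and 7.86. Its groups overlap in both diets.

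The Krtap19 genes also split from the rest within arrays. On array 2 after SDS their diet ratios were all below 0, with a median of -0.83, against 0.03 for the other 20 members, of which 11 were above 0. On array 3 after SDS their median was 1.96 and on array 1 before SDS it was 0.17. In centred levels the mean of the Krtap19 genes was -0.13 in control-fed replicate 1 and -1.72 in replicate 3 before SDS, where the other members had -1.11 and -1.02. Krtap16-10 (Krtap16-3), with 1.67 ± 0.71 (SE; limma adjusted p = 0.128) and 2.15 ± 0.71 (SE; adjusted p = 0.0654), followed the Krtap19 genes in its ratios, which were 0.42, -2.5 and -0.04 before SDS and -1.61, -0.70, 1.61 and -0.43 after it. Its log2 level in control-fed replicates went from 12.34, 13.12 and 10.45 before SDS to 14.50, 13.70, 13.14 and 13.32 after it. In GC-fed replicates it went from 12.76, 10.62 and 10.41 to 12.89, 12.999, 14.75 and 12.89. Its second row differed, with ratios of 0.63, -1.31 and -0.27 before SDS and -1.41, -0.01, 0.80 and 0.18 after it, closer to the other members. This split was seen in the values and has no test.

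Of the 27 genes, 5 had more than 1 row. The 4 rows of Krtap6-1 had ratios of -1.78, -1.04, -1.47 and -1.41 on array 2 before SDS and of 1.21, 1.25, 1.01 and 0.98 on array 3 after SDS. The rows of Krtap3-1 had -1.42 and -2.23 on array 2 before SDS, those of Krtap8-1 -1.45 and -1.86, and those of Krtap16-9 -2.47 and -1.87. Rows of a gene thus shared their sign on these arrays and differed in size.

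The members varied together over the samples, within the 4 groups as well as between them. The Pearson r of each member with the mean of the other 24 ran from 0.82 (Krtap8-2) to 0.98 over 14 samples, and Spearman's rho from 0.77 to 0.95. Without the samples farthest from the median, GC-fed replicates 2 and 3 before SDS, r ran from 0.75 to 0.98, and after taking out the mean of each of the 4 groups, from 0.76 to 0.97. Over the 300 pairs of members r ran from 0.70 to 1.00, with a median of 0.91. Samples on one array share a hybridisation, and these correlations are descriptions.

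Among all genes tested, those most like the family mean over the 14 samples were its own: of the 50 highest Pearson r, 18 were members, which helped make the mean, and 10 were genes renamed Krtap, which did not. The first gene of another name stood at rank 7. The nearest named genes outside the family were Psors1c2 (r = 0.98), Cryba4 (r = 0.98), Krt34 (r = 0.97) and Mboat1 (r = 0.97), and the other 6 of the nearest 10 carry clone or transcript names only. Krt34, an acidic hair keratin of the cortex, had diet ratios of 1.03, -1.93 and -0.45 before SDS and -1.14, -0.20, 1.27 and 0.24 after it, which follow the family array by array. Mboat1 had log2 folds of 0.21 in control-fed (limma adjusted p = 0.101) and 0.36 in GC-fed mice (adjusted p = 0.0176).

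The partners of the family, the hair keratins, also rose after SDS. Of 16 hair shaft keratins listed, 12 were tested, and 8 rose in control-fed mice and 12 rose in GC-fed mice by limma with Benjamini-Hochberg adjustment, with medians of 1.34 and 1.64. Krt33a of the cortex had 1.57 ± 0.54 (SE; adjusted p = 0.0679) and rose by 2.06 ± 0.54 (SE; adjusted p = 0.0277). Krt35, made early in the shaft, rose by 1.97 ± 0.40 (SE; adjusted p = 0.00845) and 2.15 ± 0.40 (SE; adjusted p = 0.00798). Over the 14 samples the mean of these keratins had an r of 0.95 and a rho of 0.92 with the family mean, and an r of 0.92 without the 2 samples named above. The inner root sheath, the sleeve that moulds the shaft, had 0 of 8 tested genes of 11 listed rise in control-fed mice and 3 of 8 in GC-fed mice, with medians of 0.82 and 1.39 (r = 0.89 with the family). For both lists the counts are set against all genes tested, of which 6.7% rose in control-fed mice and 6.12% in GC-fed mice. The inner root sheath count of 0 in control-fed mice is not above the 6.7% and is not read as a result. Krt71 of that list had diet ratios of 1.39, -2.77 and -0.27 before SDS.

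Some of the genes that regulate or signal in shaft formation rose. Of 24 listed, 21 were tested, of which 7 rose and 1 fell in control-fed mice and 9 rose and 1 fell in GC-fed mice. Of all genes 6.7% rose and 8.42% fell in control-fed mice, and 6.12% rose and 7.47% fell in GC-fed mice. The counts that fell are not above those shares. By brightness the list is led by S100a3, a calcium-binding protein of the cuticle, which rose by 1.52 ± 0.38 (SE; limma adjusted p = 0.0203) and 1.75 ± 0.38 (SE; adjusted p = 0.0134). The next were Vdr, the vitamin D receptor, with -0.31 ± 0.12 and -0.01 ± 0.12 (SE), and Lpar6, a lipid receptor of hair growth, with 0.10 ± 0.16 and 0.30 ± 0.16 (SE), which passed in neither diet. Picked after their values were seen, the transcription factors Hoxc13, Foxn1, Lef1 and Msx2 rose in both diets, by 0.53, 0.48, 1.26 and 0.87 in control-fed and by 0.70, 0.70, 1.54 and 1.32 in GC-fed mice. Of these Hoxc13 is known to drive hair keratin and Krtap genes, and its part here was not tested. The transcription factors Prdm1, Ovol1, Msx1 and Dlx3 of the same list passed in neither diet. They had 0.04 in Ovol1, 0.29 in Msx1, 0.16 in Dlx3 and -0.38 in Prdm1 in control-fed mice. In GC-fed mice they had 0.09, 0.27, 0.52 and -0.23 in that order. Foxq1 rose in GC-fed mice only (0.40). The genes that fell were Liph in control-fed mice (-0.35) and Bmp4 in GC-fed mice (-0.33).

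Markers of other skin cells are read against the shares of all genes, of which 6.7% rose and 8.42% fell in control-fed mice and 6.12% rose and 7.47% fell in GC-fed mice. Cell cycle genes rose for 4 of 10 in control-fed mice and 7 of 10 in GC-fed mice (medians of 0.42 and 0.60), and their mean per sample ran from -0.40 to -0.14 before SDS and from -0.05 to 0.64 after it. Melanocyte genes rose for 3 and 2 of 6 tested (medians of 0.79 and 0.71), with sample means from -0.77 to -0.19 before and -0.20 to 0.84 after SDS. Outer root sheath and companion layer genes rose for 1 and 0 of 9 and fell for 1 and 0, counts near those shares. The sample means of these 3 lists went with the family mean, with r of 0.82 for cell cycle, 0.78 for melanocyte and 0.75 for outer root sheath genes over 14 samples. Not all single genes did. Of the 3 brightest in each list, r was 0.43 for Krt17, -0.78 for Krt15 and 0.56 for Krt16 of the outer root sheath. It was 0.79 for Dct, -0.02 for Mlana and 0.84 for Pmel, and 0.85 for Birc5, 0.70 for Mki67 and 0.77 for Ccna2. The part of these lists in the Krtap result was not tested. Suprabasal epidermis fell for 2 of 12 in control-fed mice and 0 of 12 in GC-fed mice, and basal epidermis for 3 and 1 of 6. Adipocyte genes rose for 3 and 0 of 8 and fell for 0 and 1, skeletal muscle rose for 2 and 0 of 11, sebaceous gland fell for 1 and 1 of 8 tested, and macrophage genes passed for 0 of 10 in both diets in limma (2 and 1 higher at an unadjusted p under 0.05). Most of these counts are 0 to 2 genes and are not read as results. Over the samples r with the family mean was -0.63 for basal epidermis, -0.56 for sebaceous gland, -0.44 for suprabasal, -0.06 for macrophage, 0.0050 for muscle and 0.05 for adipocyte genes.

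**Figure D4:**
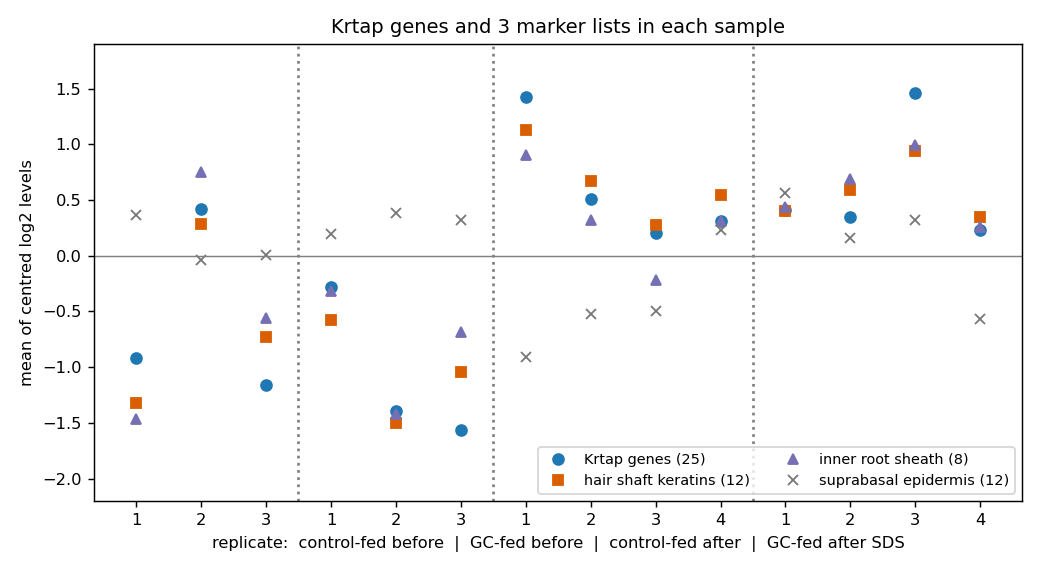
Mean of centred log2 levels of the 25 Krtap genes, 12 hair shaft keratins, 8 inner root sheath genes and 12 suprabasal epidermis genes in each of the 14 samples, by diet and SDS. The first 3 sets go up and down together, with r of 0.95 and 0.89 to the Krtap mean, and the epidermal set does not follow (r = -0.44).

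The 14 genes renamed Krtap but filed under other names were all tested. In control-fed mice 14 of 14 had a fold above 0 with a median of 1.09 and 0 passed, where 6.7% of all genes rose. In GC-fed mice 12 of 14 rose by limma with Benjamini-Hochberg adjustment, with a median of 1.76, where 6.12% of all genes rose. Their median diet ratios were 0.66, -1.66 and -0.52 before SDS and -1.04, 0.06, 1.11 and 0.11 after it, array by array near those of the members. Krtap4-6 varied least, between 14.46 and 15.26 over the 14 samples, a range of 1.74-fold. Krtap19-9b had the widest range, 23.7-fold.

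The authors' deposited table gives log2 ratios for 24 of the members. Its medians were 0.74, -1.68 and -0.54 on the arrays before SDS and -1.16, -0.02, 1.28 and -0.07 on those after SDS. Up to 6 members are listed at 0 on an array, and the authors set low intensities to a minimum before taking ratios, per the file headers.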

How the data were processed

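Dorsal skin RNA of 14 samples was measured on 7 Agilent arrays with 2 colours. The deposited scanner files hold intensity values per spot, made by the authors with Feature Extraction 9.1.3.1, per the file headers. The authors' deposited table holds log2 ratios per gene from GeneSpring, with low intensities set to a minimum, per the file headers, and 14 of its columns of single samples were not used. The deposited files give no genome build, and that of the promoter sequences is GRCm38.p6.

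Mean signals were background-corrected with limma's normexp (offset 50) and normalized by loess within arrays. For levels and SDS, channels were then Aquantile-normalized between arrays. Control rows and outlier spots were left out, genes well above background in fewer than 3 of 14 channels were not tested, and the brightest row stood for each gene, with all rows given where they differ. Diet was tested on ratios with the dye as a term in 1 fit of all arrays (4 residual degrees of freedom), and SDS by limma's separate-channel fit (9). Calls are Benjamini-Hochberg adjusted p under 0.05 over 17083 genes, so every adjusted p is from limma. The scripts were tested on simulated data. Versions were R 4.3.3, limma 3.58.1, Python 3.11.15, pandas 2.3.3, numpy 2.4.6 and scipy 1.17.1.

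Members and gene lists were chosen with earlier results of these data known. Genes described in full are the brightest of each subfamily, the highest and lowest of each comparison and those that passed, or the 10 with the smallest p. Outside the family the rule names the 10 genes nearest in pattern and up to 3 of the brightest genes of each list. Alternatives covered the dye term, background correction, signal column, filter, choice of row, normalization between channels, arrays fitted alone, a replicate block, the authors' table and each array left out. The family by current RefSeq symbol was added after seeing the data. P-values measure the spread between these samples, which the labels call biological replicates.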

Additional observations from a re-analysis of the deposited data

Results flagged for a closer look

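Among the groups of 4 samples checked, 13 of 63 had a highest or lowest sample whose gap to the nearest other exceeded 0.829 of the range of the group. Chance puts about 1 in 20 groups there, and the groups checked are not independent since the genes vary together.

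GC-fed replicate 3 after SDS stood above the other 3 of its group in the family mean (1.46), and in the log2 levels of Krtap2-4 (11.7), Krtap4-7 (13.27), Krtap6-1 (14.39), Krtap6-3 (15.03), Krtap16-5 (12.59) and Krtap16-10 (14.75). On the same array the Krtap16-1 diet ratio was 2.09, apart from the other 3 arrays after SDS. Control-fed replicate 1 after SDS stood above its group in Krtap3-1 (14.15), Krtap3-3 (11.72), Krtap4-7 (13.48), Krtap6-3 (15.2) and Krtap9-1 (12.66).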

How the results depend on the processing

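The median fold of the members after SDS stayed above 0 in both diets under every alternative run, from 0.68 to 1.68 (control-fed) and 1.30 to 2.34 (GC-fed) with single arrays left out. The number that passed did not hold. In control-fed mice it was 0 to 11 with single arrays left out, 2 with the processed signal, 1 without the filter and 0 with rows averaged. In GC-fed mice it was 1 to 25 with single arrays left out, 11 with the processed signal, 10 without the filter and 6 with rows averaged. By current symbol, chosen after seeing the data, 4 of 39 genes passed in control-fed and 27 of 39 in GC-fed mice, against 6.7% and 6.12% of all genes. Over all genes, the main fit called 2582 (control-fed) and 2322 (GC-fed), with rises and falls counted together. Averaging rows gave 1271 and 1145 calls in that order. The processed signal gave 2558 and 1336, and leaving out arrays gave 142 to 3639 and 527 to 2700. The shares of 6.7% and 6.12% hold rises only, so these totals are not on the same footing. With arrays left out the diet calls over all genes were 0 to 930 after SDS and 0 to 56 for the difference, and the medians ran from -1.66 to 0.14 before SDS, -0.48 to 0.43 after it and -0.14 to 1.71 for the difference.

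Numbers shared by arrays before and after SDS pair nothing by the labels, and the ratios of same-numbered arrays correlated at -0.09, -0.04 and 0.19. With the replicate block, 1 and 9 members and 1693 and 1537 genes passed after SDS in control-fed and GC-fed mice, the median diet ratio after SDS was -1.04, and the differences of Krtap14 and Krtap6-1 were -0.088 and -0.49. The Krtap8-2 diet ratio after SDS was -0.17 without background correction, -0.67 with the processed signal, and with single arrays left out it ran from -0.30 to 0.60, that of Krtap16-5 from -1.05 to 0.080. The diet ratios before SDS of Krtap14 and Krtap6-2 ran from -2.5 to 0.11 and from -1.2 to 0.21, and the differences of Krtap14 and Krtap6-1 from -0.044 to 2.57 and from -0.34 to 1.55. Positive ratios before SDS and the lowest differences were without array 2 before SDS. The cause was not tested. Krtap13 and Krtap20-2 are limited by signal near background.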
